A study of Mus musculus with 12 samples.

Results

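Genes of glucose uptake, glycolysis, pyruvate import, lactate export, fumarate hydration and creatine synthesis were examined in myelinating oligodendrocytes. They were taken by gene symbol and are Slc2a12, Hk1, Pfkl, Pfkfb2, Mpc2, Bsg, Fh1 and Gamt, 8 of the 2398 genes in the count table, and all 8 passed the filter on low counts that left 1484 genes for testing. RNA sequencing was done on brain cells sorted for the green fluorescence of the Ndrg1-EGFP reporter and for exclusion of propidium iodide, which enters dead cells. All animals were C57BL/6 mice carrying that reporter and 2 floxed Lmna alleles, aged 60 postnatal days in the characteristics and 8 weeks in the growth protocol. The WT group was Cnp+/+;Lmnafl/fl, so its Lmna alleles were floxed and no Cre allele was present. The KO group was CnpCre/+;Lmnafl/fl, in which Cre is expressed from a Cnp allele, an oligodendrocyte lineage gene, so KO animals also had 1 fewer intact Cnp copy. Each genotype had 3 biological replicates with 2 libraries each.

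Oligodendrocytes wrap axons in myelin and also feed them. Glucose enters through facilitative transporters, is phosphorylated by hexokinase and is committed to glycolysis by phosphofructokinase. The resulting pyruvate is either carried into mitochondria by the mitochondrial pyruvate carrier or reduced to lactate, which leaves through monocarboxylate transporters and is used by the axon. Phosphocreatine buffers ATP in brain, and oligodendrocytes are a known site of the last step of creatine synthesis.

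Promoter windows are shown for 4 of the genes, from 250 bases before to 50 after an annotated start, 300 bases each, read 5′ to 3′ from RefSeq on GRCm38.p6. Gamt and Slc2a12 were chosen because they stood at the top and the bottom of the level order given below, and Pfkfb2 and Hk1 because they are glycolytic genes with a window that holds the letters of the hypoxia response core. For these genes the window with the most matches is shown. Of the 3 windows of Pfkfb2, 1 held no hypoxia core, and the other window of Hk1 also held none. Capitals mark the GC box GGGCGG and the hypoxia response core ACGTG, each searched on both strands, so CCGCCC and CACGT are marked too. The E-box CACGTG overlaps the hypoxia core and is counted as 2 matches of it, 1 on each strand. The Gamt window is chr10:80260963-80261262 on the minus strand, that of Pfkfb2 is chr1:130715772-130716071 on the minus strand, that of Hk1 is chr10:62340372-62340671 on the minus strand, and that of Slc2a12 is chr10:22644761-22645060 on the plus strand.
Gamt: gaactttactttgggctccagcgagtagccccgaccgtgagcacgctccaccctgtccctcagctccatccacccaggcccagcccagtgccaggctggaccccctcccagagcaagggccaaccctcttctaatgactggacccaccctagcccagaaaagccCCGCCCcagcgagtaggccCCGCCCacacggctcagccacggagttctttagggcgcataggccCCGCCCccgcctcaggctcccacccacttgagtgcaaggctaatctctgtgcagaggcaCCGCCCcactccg
Pfkfb2: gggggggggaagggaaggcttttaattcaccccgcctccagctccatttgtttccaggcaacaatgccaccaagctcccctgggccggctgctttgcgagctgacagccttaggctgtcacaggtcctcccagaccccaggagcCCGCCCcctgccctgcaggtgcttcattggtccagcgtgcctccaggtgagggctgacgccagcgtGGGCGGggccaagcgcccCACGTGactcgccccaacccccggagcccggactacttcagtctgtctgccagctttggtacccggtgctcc
Hk1: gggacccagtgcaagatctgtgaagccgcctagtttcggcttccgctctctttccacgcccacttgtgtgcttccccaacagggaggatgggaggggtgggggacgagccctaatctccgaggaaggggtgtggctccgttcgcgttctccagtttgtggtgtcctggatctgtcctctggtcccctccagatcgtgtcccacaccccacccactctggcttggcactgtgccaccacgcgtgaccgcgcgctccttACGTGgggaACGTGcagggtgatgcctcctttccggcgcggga
Slc2a12: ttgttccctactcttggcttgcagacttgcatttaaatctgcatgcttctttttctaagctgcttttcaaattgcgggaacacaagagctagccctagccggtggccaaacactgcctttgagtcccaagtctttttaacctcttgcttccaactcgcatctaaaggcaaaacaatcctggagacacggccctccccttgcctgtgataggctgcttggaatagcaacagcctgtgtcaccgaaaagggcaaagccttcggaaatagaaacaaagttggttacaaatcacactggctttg

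The Gamt window held 4 GC boxes, a number reached or passed in 5.49% of the 32851 windows of the same length. The Pfkfb2 window held 2 GC boxes and 1 E-box, and the Hk1 window held 2 matches of the hypoxia core. The Slc2a12 window held neither set of letters, which says only that they are not in this window. Over all 32851 windows, 35.7% held a GC box, 19.6% the hypoxia core and 7.15% the E-box. Of the 10 windows that belong to 7 of the members, 5 held a GC box and 3 the hypoxia core. Bsg had no entry. A match of letters is a description and not a binding site, and gene counts do not show which of the annotated starts of Hk1 or Pfkfb2 was used.

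Counts in the genes of the table ranged from 3694551 to 6093336 per biological replicate after its 2 libraries were summed. Genes of chromosomes 1 and 10 (the latter as far as 111.3 Mb) make up the table. Lmna, Cnp and most glycolytic genes are not analysed here, and the recombination of Lmna was not checked. Of 20 myelinating oligodendrocyte markers only Adamts4 and Nfasc were in the table, and they summed to between 10321 and 17097 CPM, which are counts per 1000000 counts in the genes of the table, scaled by TMM factors. Listed markers of other cells had lower sums. Over all replicates they were 391 to 1142 CPM for 4 astrocyte markers, 240.2 to 635 for 6 microglia and leukocyte markers and 15.8 to 257 for 4 neuron markers. They were 247 to 1061 for 7 mural and fibroblast markers, 1320.1 to 1624 for 3 progenitor markers and 25.9 to 58.4 for 4 endothelial markers. The sums cover different genes in different numbers, so they do not rank the cell types. The progenitor sum was mostly Fyn, at 1285 to 1528 CPM, with Tnr at 0.497 to 25.2 CPM and Neu4 at 0 to 70.4 CPM. Immediate early genes, which respond to tissue dissociation, summed to 285 to 3564 CPM. In bulk samples fewer cells of a type and less RNA per cell cannot be told apart.

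The 8 genes spanned a wide range of levels. Per kilobase of the longest annotated transcript, Gamt stood highest at 5466 ± 701 CPM per kb (SD over n = 6 replicates), the place of rank 11 among 1336 tested genes with a length. Gamt encodes guanidinoacetate methyltransferase, which makes creatine from guanidinoacetate. Bsg followed at 2349 ± 399 CPM per kb, rank 27. It encodes basigin, the membrane partner that some monocarboxylate transporters need to reach the cell surface. Mpc2, a subunit of the mitochondrial pyruvate carrier, stood at 289.8 ± 37.8 CPM per kb, and Fh1, the fumarate hydratase of the citric acid cycle, at 238 ± 24.6. The glycolytic enzymes came next, with Pfkl, the liver-type phosphofructokinase, at 163 ± 10.2 and Hk1, the hexokinase of brain mitochondria, at 154 ± 11.6 CPM per kb. Pfkfb2, a bifunctional enzyme that sets the amount of the activator of phosphofructokinase, stood at 55.2 ± 7.40 CPM per kb. Slc2a12, a facilitative glucose transporter, stood lowest at 4.33 ± 4.25 CPM per kb, rank 1056.

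**Figure D1:**
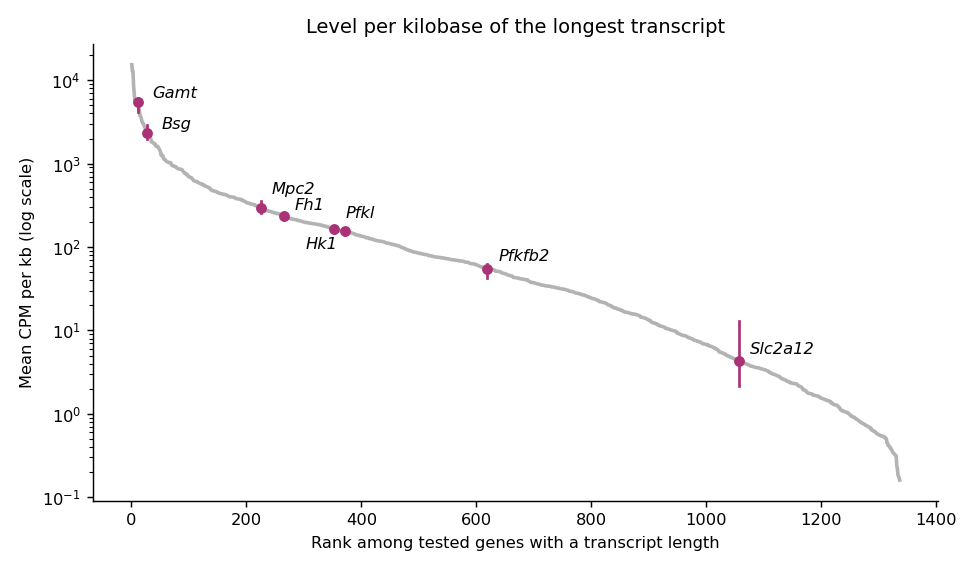
Mean CPM per kilobase of the longest transcript (log axis) against rank for the tested genes with a length (grey line), with the 8 genes as purple points and vertical lines from their lowest to their highest replicate. Gamt and Bsg stand at ranks 11 and 27 of 1336, and Slc2a12 at rank 1056.

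Most neighbours in this order were apart in every replicate. Gamt was above Bsg by 2.33-fold and Bsg above Mpc2 by 8.10-fold on mean CPM per kb, each in 6 of 6 replicates. Fh1 was above Pfkl in 6 of 6 replicates, Hk1 above Pfkfb2 by 2.79-fold and Pfkfb2 above Slc2a12 by 12.8-fold, also in 6 of 6. The ranges of Mpc2 and Fh1 overlapped, with Mpc2 higher in 5 of 6 replicates, and so did those of Pfkl and Hk1, with Pfkl higher in 5 of 6. Pfkl and Hk1 changed places when the length of the APPRIS principal transcript was used, which put Hk1 at 171 CPM per kb. The longest transcript of Mpc2, of 4015 bases, is annotated as a retained intron. With the principal transcript of 1025 bases Mpc2 stood at 1135 CPM per kb, still between Bsg and Fh1.

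Comparison of KO with WT asked whether the energy supply genes differ between myelinating oligodendrocytes of these genotypes. Of the 8 genes, 0 were higher and 0 lower in KO by edgeR's quasi-likelihood test at an adjusted p under 0.05, against 0% called in either direction among all 1484 genes tested. At an unadjusted p under 0.05 the count was 0 of 8, where 3.98% of all genes passed, and DESeq2 and limma-voom also called 0 of the 8. Over all genes tested DESeq2 called 6 higher and 1 lower, and limma-voom 0. The log2 fold change, KO over WT, was above 0 for Pfkl, Pfkfb2 (-0.0050 under library totals) and Gamt and below 0 for the other 5, with a median of -0.094 against -0.0064 over all genes tested. For 7 of the 8 genes the 95% interval of the log2 fold change lay within 1 log2 unit of no change, as it did for 63.6% of all genes tested. The exception was Slc2a12. Each of the 8 genes had an edgeR adjusted p (Benjamini-Hochberg) of 0.994, which does not show that the genotypes are alike.

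**Figure D2:**
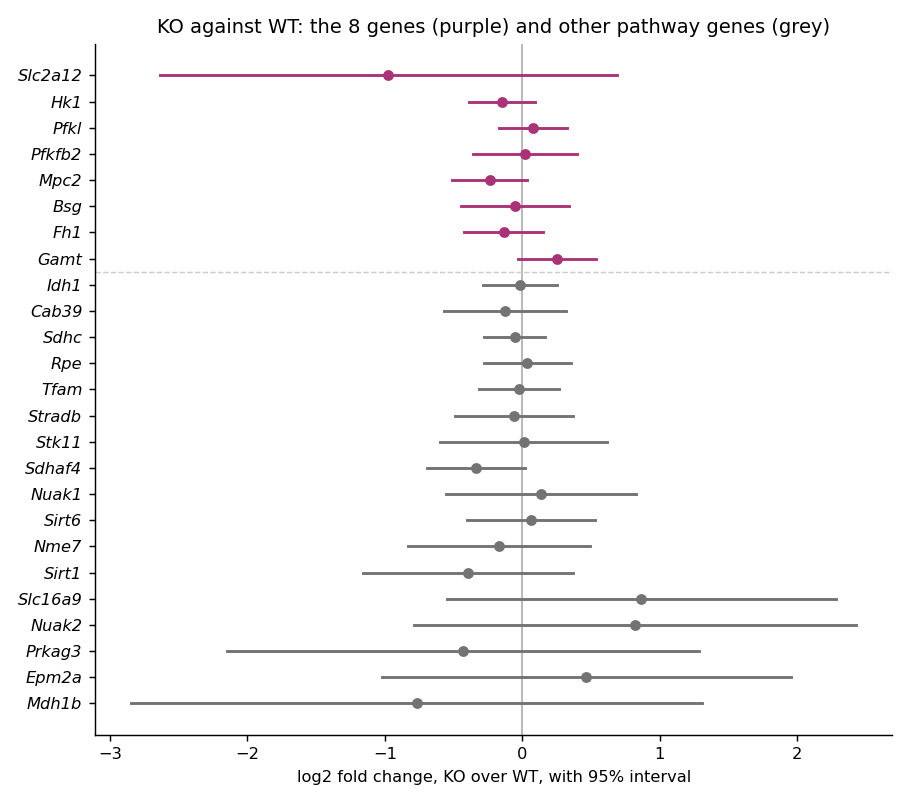
The log2 fold change, KO over WT, with its 95% interval from the edgeR fit for the 8 genes (purple, above the dashed line) and 17 other tested genes of the pathway lists (grey). Every interval includes 0, those of 7 of the 8 genes lie within 1 log2 unit of 0, and that of Slc2a12 runs from -2.63 to 0.69.

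Glucose uptake was represented by Slc2a12 (Entrez Gene 353169, chromosome 10, 22644990 to 22703880 in mm10). WT replicates stood at 53.8, 8.94 and 9.004 CPM and KO replicates at 9.68, 16.0 and 10.8 CPM. WT replicate 1 was high, and the other 5 replicates ranged from 8.94 to 16.0 CPM. The counts behind these values were 34 to 283 per replicate. Its fitted log2 fold change was -0.97 ± 0.73 (SE), and it was 0.44 without WT replicate 1, so the sign rested on that replicate. In the same replicate the choroid plexus potassium channel gene Kcnj13 reached 131 CPM, against 1.58 to 16.2 CPM in the others. Igfbp2, an insulin-like growth factor binding protein made by choroid plexus among other tissues, stood at 269.6 CPM there and at 17.5 to 122 CPM in the others. Both were picked with their values in view, and their part in the Slc2a12 value was not tested. Among the other replicates, Kcnj13 and Igfbp2 were highest in KO replicate 1 and Slc2a12 in KO replicate 2. Slc2a12 shares 407 bases at its 3′ end with Tbpl1 on the opposite strand, which stood at 271 to 345 CPM without a high value in WT replicate 1.

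Entry into glycolysis was represented by Hk1 and by the phosphofructokinase pair of Pfkl and Pfkfb2. Hk1 (Entrez Gene 15275, chromosome 10, 62268855 to 62379920) stood at 704, 656 and 717 CPM in WT and at 611, 673 and 592 CPM in KO. KO replicate 2 lay above WT replicate 2, so the genotypes overlapped in that pair only. Hk1 had a log2 fold change of -0.15 ± 0.11 (SE), and its 95% interval corresponds to 0.763 to 1.07 of the WT level. Hkdc1, the neighbouring paralog of Hk1, had 23 counts in all 6 replicates together, between 0 and 11 in each, and was not tested. The antisense gene Hk1os within the Hk1 locus stood at 4.32 to 7.28 CPM.

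Pfkl (Entrez Gene 18641, chromosome 10, 77986947 to 78009807) stood at 642, 583 and 552 CPM in WT and at 656, 612 and 612 CPM in KO. All 3 KO replicates lay above WT replicates 2 and 3, and 2 of them lay below WT replicate 1. Its log2 fold change was 0.081 ± 0.11 (SE), with a 95% interval of 0.891 to 1.26 of the WT level. It was 0.14 without WT replicate 1, 0.041 without WT replicate 3 and 0.044 without KO replicate 1. Pfkfb2 (Entrez Gene 18640, chromosome 1, 130689043 to 130729253) stood at 191, 280.0 and 269.9 CPM in WT and at 242, 237 and 272 CPM in KO. WT replicate 1 was the lowest of the 6, and KO values lay inside the WT range. Pfkfb2 had a log2 fold change of 0.021 ± 0.17 (SE), which was -0.14 without WT replicate 1 and -0.045 without KO replicate 3. Yod1, a deubiquitinase gene, lies wholly inside the Pfkfb2 locus on the opposite strand and stood at 140 to 195 CPM, also lowest in WT replicate 1. The sources used here do not give whether counting used strand, and without strand reads from overlapping stretches of Pfkfb2 and Yod1 cannot be told apart.

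**Figure D3:**
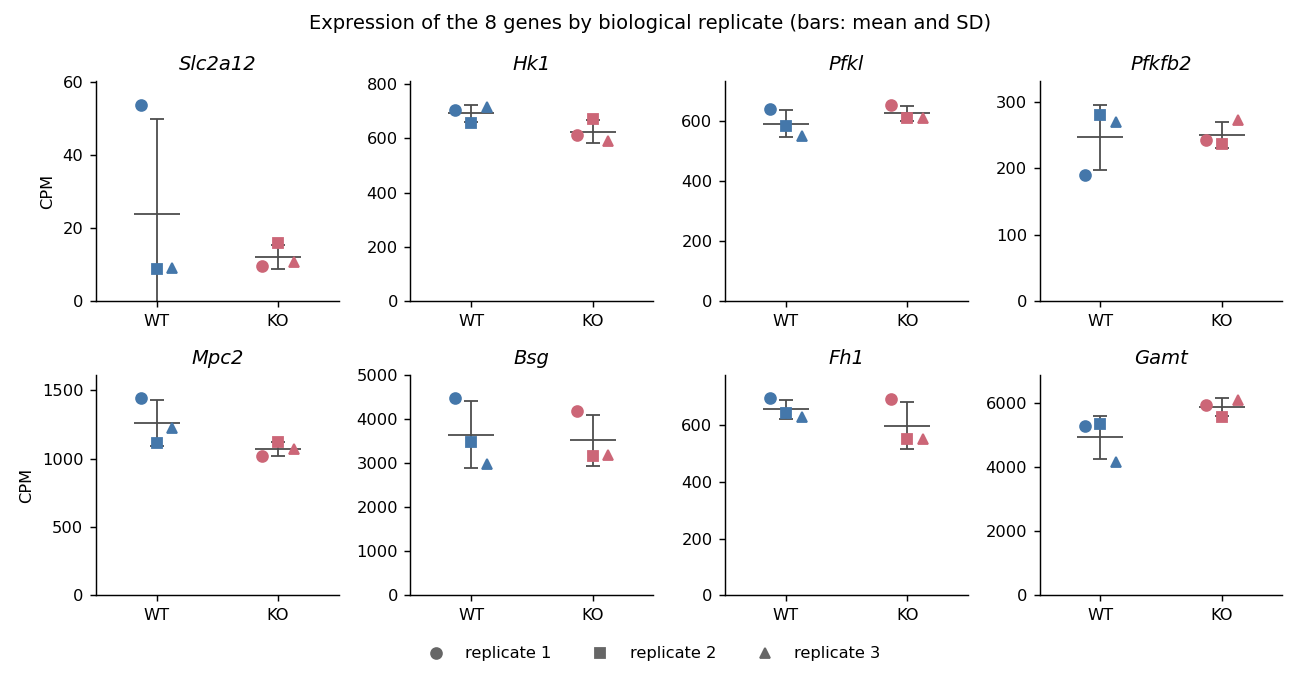
CPM of each of the 8 genes in the 3 WT and 3 KO biological replicates, with the marker shape giving the replicate number, the horizontal line the mean and the bars the SD; each panel has its own axis from 0, and the lower bar of Slc2a12 in WT ends at the axis. Gamt is the 1 panel in which the genotypes do not overlap, and in Slc2a12 a single WT replicate at 53.8 CPM stands apart.

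The fate of pyruvate was represented by Mpc2 and Bsg. Mpc2 (Entrez Gene 70456, chromosome 1, 165461260 to 165481218) stood at 1440, 1114 and 1224 CPM in WT and at 1016, 1118 and 1070.1 CPM in KO. The KO replicates lay close together, and WT replicate 2 fell just below the highest of them. Its log2 fold change was -0.24 ± 0.12 (SE, unadjusted p = 0.0809 in edgeR), with a 95% interval of 0.702 to 1.03 of the WT level. Without WT replicate 1, the highest of the 6, it was -0.13. Without WT replicate 2 it was -0.31 (unadjusted p = 0.0338 and adjusted p = 0.996 in edgeR). Bsg (Entrez Gene 12215, chromosome 10, 79704358 to 79711979) stood at 4475, 3488 and 2990 CPM in WT and at 4193, 3167 and 3195 CPM in KO. Replicate 1 was the highest in each genotype, by more than the genotypes differed. For Bsg the log2 fold change was -0.053 ± 0.17 (SE). It was 0.12 without WT replicate 1, 0.021 without KO replicate 2 and 0.010 without KO replicate 3.

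Bsg is also made by brain endothelium and astrocytes. The summed astrocyte markers (4 of 14 in the table, all tested, none at 0 in any replicate) were highest in the same replicates as Bsg, at 876 CPM in WT replicate 1 against 391 and 447 in the other WT replicates, and at 1142 CPM in KO replicate 1 against 795 and 529. Gja1, a connexin of astrocytes, stood at 372 CPM in WT replicate 1 and 737 CPM in KO replicate 1, each the highest of its genotype. Gpr37l1, a receptor gene of astrocytes, did not follow Bsg in KO, with 442 CPM in KO replicate 2 against 187 CPM in KO replicate 1. Summed endothelial markers (4 of 22 in the table, 2 tested) stood at 35.2, 58.4 and 25.9 CPM in WT and at 40.7, 28.5 and 28.8 CPM in KO. In KO they were highest in replicate 1, as Bsg was, and close to each other in replicates 2 and 3. In WT they were highest in replicate 2. Cd34, the most abundant of the 4, stood at 31.0, 58.4 and 25.2 CPM in WT and at 38.2, 21.7 and 18.4 CPM in KO. It did not share the order of Bsg in either genotype. Of the 4, Sele, Selp and Ackr1 were at 0 in at least 1 replicate. The part of the astrocyte and endothelial signals in the Bsg values was not tested.

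In the mitochondrial matrix, Fh1 (Entrez Gene 14194, chromosome 1, 175601378 to 175625635) stood at 695, 644 and 631 CPM in WT and at 694, 552 and 550.4 CPM in KO. KO replicate 1 lay with the WT replicates and the other KO replicates below them. Its log2 fold change was -0.13 ± 0.13 (SE), with a 95% interval of 0.747 to 1.11 of the WT level. It was -0.26 without KO replicate 1, -0.075 without KO replicate 2 and -0.079 without KO replicate 3. Kmo, which overlaps the start of Fh1 on the opposite strand, stood at 0 to 3.60 CPM.

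Creatine synthesis was represented by Gamt (Entrez Gene 14431, chromosome 10, 80258151 to 80261025). Its WT replicates stood at 5285, 5350 and 4151 CPM and its KO replicates at 5946, 5568 and 6102 CPM. Every KO replicate was above every WT replicate under TMM, RLE and upper quartile factors and under library totals alone. Gamt was the only one of the 8 genes without overlap, a share of 12.5%, where 8.49% of all genes tested did not overlap and 4.45% did so with KO higher. Gamt had a log2 fold change of 0.25 ± 0.13 (SE, unadjusted p = 0.0772 in edgeR), with a 95% interval of 0.977 to 1.45 of the WT level. It ranged from 0.15 without WT replicate 3, the lowest of the 6, to 0.33 without WT replicate 2. Both myelinating oligodendrocyte markers in the table, Adamts4 and Nfasc, also stood higher in every KO replicate, with sums of 10321 to 11902 CPM in WT against 14783 to 17097 CPM in KO, and so did Fyn, a kinase gene of the progenitor list. Adamts4 had an unadjusted p of 0.00117 and an adjusted p of 0.504 in edgeR, and Nfasc an unadjusted p of 0.0132 and an adjusted p of 0.927. Their part in the Gamt values was not tested.

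Count ratios between the genes, which do not depend on scaling, were compared for all 28 pairs. For 5 of the 28 ratios, 17.9%, the genotypes were without overlap, against 8.63% of the pairs among 1332 tested genes of at least 5 CPM. The 28 ratios share genes and are not independent, so these shares are a description without a test. Of the 5 ratios, 3 had Gamt in the numerator. The ratio of Gamt to Mpc2 counts was 3.67, 4.80 and 3.39 in WT and 5.85, 4.98 and 5.70 in KO. For Gamt to Hk1 the ratio was 7.15 ± 1.22 in WT and 9.44 ± 1.05 in KO (SD, n = 3). Gamt to Fh1 gave 7.60, 8.30 and 6.58 in WT and 8.57, 10.1 and 11.1 in KO. The remaining ratios were lower in KO and had Pfkl in the denominator. Mpc2 to Pfkl stood at 2.24, 1.91 and 2.22 in WT and at 1.55, 1.83 and 1.75 in KO, and Fh1 to Pfkl at 1.11 ± 0.030 in WT and 0.953 ± 0.091 in KO. Within the set, the steadiest ratio over the 6 replicates was that of Mpc2 to Hk1, whose highest value was 1.23 times its lowest. The named ratios were picked with their values in view.

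The genes differed in how much they varied among replicates of a genotype. Hk1 and Pfkl were steady, with a within-genotype SD of 0.083 and 0.088 on the log2 scale (CPM plus 0.5). Of the 100 tested genes nearest in mean CPM to each, 90 had a larger SD than Hk1 and 87 a larger SD than Pfkl. Pfkfb2 had an SD of 0.23, with 37 of its 100 nearest genes above it. Gamt, Mpc2 and Fh1 lay near the middle for their level, with SD of 0.15, 0.14 and 0.15. Bsg varied most for its level, at 0.26, where 9 of the 100 nearest genes had a larger SD. Slc2a12 had an SD of 1.06, and 15 of its 100 nearest genes had a larger one. The 2 libraries of a replicate differed by at most 1.01-fold for Gamt and 1.15-fold for Pfkfb2, the ends of the range over 7 genes, and by up to 1.53-fold for Slc2a12 with its few counts. WT replicate 1 held the highest value of 4 of the 8 genes (Slc2a12, Mpc2, Bsg and Fh1) and the lowest of Pfkfb2. The 8 genes together took 1.103% of the counts in WT replicate 3 and 1.37% in WT replicate 1, with the other replicates between.

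**Figure D4:**
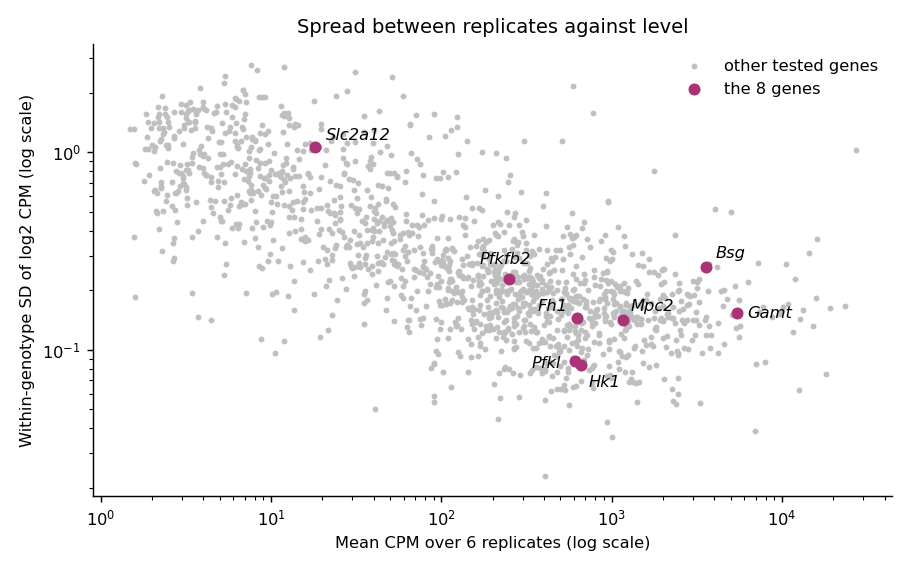
Within-genotype SD of log2 CPM against mean CPM over the 6 replicates (both axes log) for the tested genes (grey) and the 8 genes (purple). Hk1 and Pfkl lie low in the cloud at their level with SD of 0.083 and 0.088, and Bsg lies high at 0.26.

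**Figure D5:**
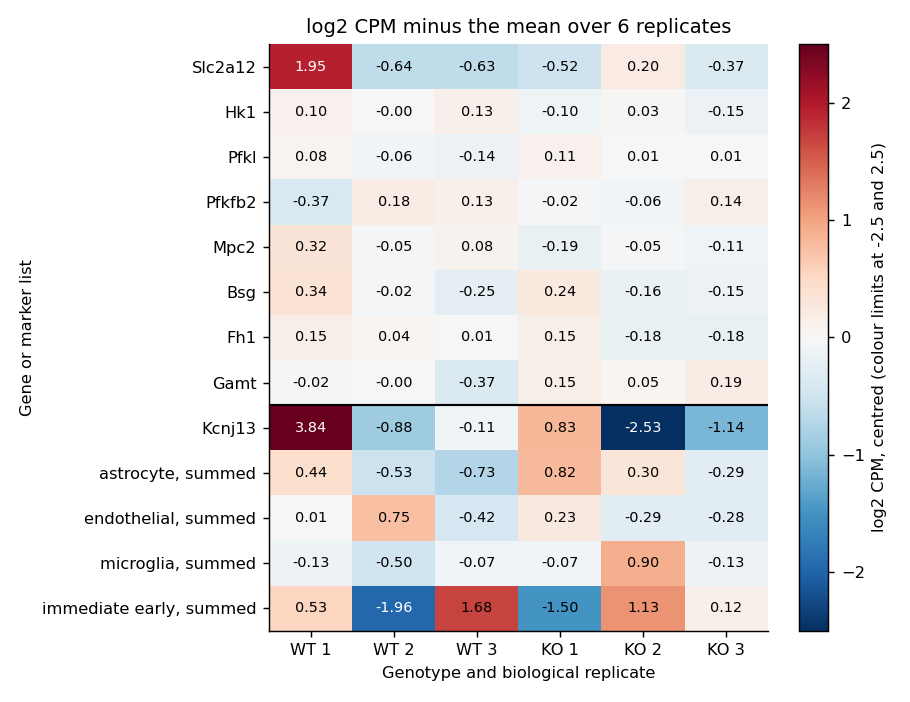
The log2 CPM of each of the 8 genes, of Kcnj13 and of 4 summed marker lists in each biological replicate, minus the mean over the 6 replicates (colour and printed value, colours saturating at the stated limits). WT replicate 1 is high for Slc2a12 and Kcnj13, and replicate 1 of each genotype is high for Bsg and for the astrocyte markers.

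Other genes of the same pathways came from 7 lists, of which 17 tested genes are not among the 8. Of these 17, 0 were called higher and 0 lower by edgeR and 0 had an unadjusted p under 0.05. DESeq2 and limma-voom called 0 of them too. Their log2 fold changes were above 0 for 7 and below 0 for 10, with a median of -0.022. The table held 1 of 15 listed glucose transport genes and 4 of 39 of glycolysis, and these lists added no tested gene beyond the 8. It held 5 of 42 genes of pyruvate and lactate transport and 5 of 41 of the citric acid cycle and shuttles. For creatine and adenylate buffering it held 2 of 23, for glycogen and pentose phosphate 2 of 34 and for energy sensing 10 of 39. Most genes of these pathways were therefore not seen. Slc16a9, a member of the monocarboxylate transporter family, averaged 46.7 ± 26.9 CPM (SD, n = 3) for WT against 85.3 ± 54.1 for KO, where KO replicate 1 reached 148 CPM. Slc16a10 and Slc16a14 of the same family had 35 and 4 counts in all replicates together. The list of the citric acid cycle and metabolite shuttles had 5 tested genes, Fh1, Idh1, Sdhc, Sdhaf4 and Mdh1b. Mdh1b stood at only 1.03 to 11.7 CPM. All 5 had a log2 fold change below 0 under TMM factors (Idh1 was at 0.0052 under upper quartile factors), with a median of -0.13. Over all 1484 genes tested, 750 were below 0. Idh1, the cytosolic isocitrate dehydrogenase that makes NADPH, averaged 2599 ± 323 CPM for WT against 2568 ± 164 for KO. Sdhc, a membrane subunit of succinate dehydrogenase, averaged 1363 ± 82.3 and 1312 ± 37.9 CPM in the same order.

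Sdhaf4, an assembly factor of succinate dehydrogenase, stood at 154, 138 and 147 CPM in WT and at 101, 126 and 121 CPM in KO. Every KO replicate was below every WT replicate. Its log2 fold change was -0.34 ± 0.16 (SE, unadjusted p = 0.0632 in edgeR), and the adjusted p was 0.994. It was the 1 gene of the 17 whose genotypes did not overlap, 5.88% against 8.49% of all genes tested. Among genes of glycogen and the pentose phosphate path, Rpe, ribulose-phosphate epimerase, averaged 599 ± 86.6 CPM for WT against 616 ± 63.3 for KO. Epm2a, which encodes the glycogen phosphatase laforin, ranged from 3.78 to 11.2 CPM over both genotypes. Nme7, of the nucleoside diphosphate kinase family, averaged 60.7 ± 14.4 CPM for WT against 54.0 ± 13.4 for KO. The energy sensing list had 9 tested genes, 4 above and 5 below 0. Cab39, a scaffold that activates the kinase LKB1, averaged 1577 ± 331 CPM for WT against 1444 ± 306 for KO. Its partner Stradb averaged 238 ± 12.7 and 228 ± 56.3 CPM, and Tfam, which packages and transcribes mitochondrial DNA, at 355 ± 29.9 and 349 ± 33.3 CPM.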

How the data were processed

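Raw read counts per gene and library were used as deposited by the authors, 12 libraries in all. The submitters' processing notes name HISAT2, featureCounts, SAMtools 1.4.1, fastp, FastQC, CASAVA 1.8.2 and DESeq2 1.38.1, and the genome build mm10. The sources used here do not give the annotation or the strand setting. Of the table, 2398 lines were complete, and a truncated last line was not used. Entrez Gene identifiers were matched to RefSeq symbols for 2226 genes, and the 172 unmatched held 0.552% of the counts. The 2 libraries of a replicate were summed, giving n = 3 per genotype.

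The genotypes were compared with edgeR 4.0.16 in R 4.3.3 (limma 3.58.1 for voom, DESeq2 1.42.0) with TMM factors of 0.951 to 1.05, filterByExpr, robust quasi-likelihood estimates and p-values adjusted by Benjamini-Hochberg over all 1484 genes tested. SE was obtained from the fold change and its F statistic, and 95% intervals use the moderated degrees of freedom. An exact permutation test of 3 against 3 cannot give a two-sided p under 0.1. The fit was tested on simulated data, and no outcome of that test is given or used as support here. Lengths are from GENCODE M21. The labels call the replicates biological without naming animals, so p-values measure the spread between these samples.

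The members and lists were chosen with earlier results of these data known. Named genes were the 8 members, the called or otherwise up to 3 most abundant other tested genes of each pathway list, up to 2 of each marker list and paralogs; endothelial markers at 0 in a replicate, Kcnj13, Igfbp2, overlapping genes and the ratios were chosen after their values were seen. Alternatives were other size factors and filters, DESeq2, limma-voom, a non-robust fit, a replicate block, single or separate libraries, other transcript lengths and leaving out each replicate.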

Additional observations from a re-analysis of the deposited data

How the results depend on the processing

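In each of the 18 alternative fits 0 of the 8 genes were called, with adjusted p from 0.0773 (Gamt with 12 separate libraries in edgeR) to 1.00. Of 144 values of the 8 genes under alternatives, 136 kept the sign. At an unadjusted p under 0.05 in edgeR, 0 of the 8 genes passed in the main fit. Without WT replicate 2, 2 of the 8 passed, where 72 of 1548 genes did. With 12 separate libraries 3 of the 8 passed, where 237 of 1348 genes did. Over all genes tested, the counts of 0 higher and 0 lower moved to 6 and 1 with DESeq2 on the 6 replicates and to 31 and 18 with edgeR on 12 separate libraries, a setting that counts both libraries of each replicate as separate samples. The sign changed for Pfkfb2 with library totals only (-0.0050) and with the second library only (-0.034), for Idh1 (0.0052) and Tfam (0.0022) with upper quartile factors, for Tfam with the second library only (0.039) and for Stradb with the first library only (0.016), and the cause was not tested. No alternative moved the median of all genes by over 0.1.

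Leaving out 1 replicate gave ranges of the log2 fold change of -1.35 to 0.44 for Slc2a12, -0.14 to 0.13 for Pfkfb2, -0.20 to 0.12 for Bsg, -0.26 to -0.075 for Fh1, 0.041 to 0.14 for Pfkl, -0.082 to 0.084 for Idh1, -0.32 to 0.023 for Nme7, -0.055 to 0.16 for Rpe, -0.30 to 0.033 for Cab39, -0.095 to 0.050 for Tfam and -0.16 to 0.13 for Stradb. Mpc2 ranged from -0.31 to -0.13 in the same way, Gamt from 0.15 to 0.33 and Hk1 from -0.20 to -0.11. The value of Slc2a12 was -0.40 with the replicate block and -0.44 with limma-voom. APPRIS lengths, chosen after seeing the data, and median transcript lengths each kept 6 of 8 places in the order per kilobase, and leaving out a replicate kept all 8.

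The replicate numbers gave no sign of pairing. Same-numbered replicates had correlated deviations of -0.0032, -0.30 and 0.14, and the highest correlation, 0.35, joined WT replicate 2 to KO replicate 1. With the replicate block, 0 genes were called higher, 0 lower, and 0 of the 8. Of the 8 genes, Slc2a12 had the widest interval of the log2 fold change, the fewest counts and the largest SD among replicates of a genotype.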

Other observations

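For each of the 8 genes the tested genes of at least 50 CPM with the most alike pattern over the 6 replicates were found by the root mean square difference of centred log2 CPM, a description in which all genes share the same libraries. Fh1 was most like Mrps14, a mitochondrial ribosomal protein gene, with a difference of 0.027, and Pttg1ip (0.040). Hk1 was most like Wdr18 (0.040) and Dtymk (0.051), and Pfkl like Gtf3c6 (0.037) and Nck2 (0.045). Gamt was most like Bpnt1 (0.062) and Adipor1 (0.068). Mpc2 was most like Dusp12 (0.077) and Ndufb3 (0.080), a gene of respiratory complex I. Bsg was most like Cr1l (0.056) and Mtarc2 (0.078), and Pfkfb2 like Desi2 (0.059) and Gcc2 (0.067). Slc2a12 had no close match among these genes, with Chchd10 at 0.40 and Chil1 at 0.47. It averaged 18.0 CPM itself, so genes of its own level were not among the candidates. The median difference from all such genes was 0.19 to 0.27 for the 7 genes other than Slc2a12 and 0.91 for Slc2a12.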
